A study of Mus musculus with 15 samples.

Results

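The genes described here are the 3 members of the Gadd45 family, Gadd45a, Gadd45b and Gadd45g, the gene of the tumour suppressor p53, Trp53, and 6 established p53 targets, Cdkn1a, Mdm2, Plk2, Ccng1, Trp53inp1 and Sesn2. They are 10 of the 21368 genes that a probe of the array could be named for, found by their symbols after earlier results of these data were known, and 12 of the 55681 probes read them. The filter on dim probes, which asked for 1 group with all 3 arrays well above background, left 14443 genes, and all 10 passed it. The probe used for each was in fact well above background on all 15 arrays. Expression was measured in mouse embryonic stem cells on single-colour Agilent arrays, with 3 arrays for each of 5 groups. The Nat1-null group lacks the gene called Nat1 in the labels, which is Eif4g2 today and whose protein resembles the initiation factor eIF4G. The next groups are Nat1-null cells that carry a tet-inducible Map3k3 gene, grown with doxycycline (Map3k3 Dox) or without it (Map3k3 no Dox), and Nat1-null cells with a tet-inducible EGFP gene, grown with doxycycline (EGFP Dox). The last group is wild-type cells (WT), so 4 of the 5 groups share the Nat1 deletion. All were grown on gelatin-coated plates in a standard medium for these cells. Not given in the sources used here are the dose and duration of doxycycline, the number of clones per line, the promoter behind the inducible genes and the parent of the null cells. Whether the 3 arrays of a group hold separate cultures is not stated. The p-values then measure only how far these samples scatter, which may be technical.

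The p53 protein is a transcription factor that is switched on by DNA damage and other stress and is held at a low level by MDM2, a ubiquitin ligase whose own gene is a p53 target. The CDK inhibitor p21, encoded by Cdkn1a, is a main target through which p53 stops the cell cycle. GADD45 proteins are small proteins without enzyme activity that bind p21, PCNA, CDK1 and the kinase MAP3K4, by which they can activate the p38 and JNK kinases, and they take part in active DNA demethylation. Gadd45a is a p53 target, while Gadd45b and Gadd45g are better known as genes of cytokine, NF-kB and differentiation signals. Map3k3 encodes MEKK3, a kinase above the MAP kinase pathways.

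Promoter sequences are shown for the Gadd45 genes, since the family members moved differently, and for Plk2 and Cdkn1a. Like Gadd45g, both rose in Map3k3 Dox against no Dox cells, as did Gadd45b, Mdm2 and Ccng1. Each is the 250 bases before the RefSeq start in GRCm38.p6, on the gene's strand, 5′ to 3′. Capitals mark matches to the CCAAT box, the octamer ATTTGCAT, the cyclic AMP response element TGACGTCA and the p53 decamer, a single arm of the p53 response element. All were searched on both strands. The p53 decamer and the cyclic AMP response element read the same on either strand, and the matches marked here do not overlap each other.
Gadd45a, chr6:67037408-67037657, minus strand: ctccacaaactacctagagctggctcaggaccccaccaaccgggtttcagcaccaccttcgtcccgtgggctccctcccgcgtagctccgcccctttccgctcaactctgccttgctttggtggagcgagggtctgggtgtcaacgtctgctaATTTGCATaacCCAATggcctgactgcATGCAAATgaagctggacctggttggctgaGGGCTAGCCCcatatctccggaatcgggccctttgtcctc
Gadd45b, chr10:80929841-80930090, plus strand: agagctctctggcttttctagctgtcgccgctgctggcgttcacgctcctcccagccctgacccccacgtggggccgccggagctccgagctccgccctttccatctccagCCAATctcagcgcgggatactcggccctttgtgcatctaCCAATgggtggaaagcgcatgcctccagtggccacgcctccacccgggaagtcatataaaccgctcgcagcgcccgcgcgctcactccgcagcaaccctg
Gadd45g, chr13:51846425-51846674, plus strand: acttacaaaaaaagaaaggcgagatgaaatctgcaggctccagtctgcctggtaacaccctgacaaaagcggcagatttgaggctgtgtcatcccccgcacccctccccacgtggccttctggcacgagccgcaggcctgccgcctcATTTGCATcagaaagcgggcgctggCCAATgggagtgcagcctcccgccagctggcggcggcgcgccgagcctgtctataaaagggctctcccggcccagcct
Plk2, chr13:110394794-110395043, plus strand: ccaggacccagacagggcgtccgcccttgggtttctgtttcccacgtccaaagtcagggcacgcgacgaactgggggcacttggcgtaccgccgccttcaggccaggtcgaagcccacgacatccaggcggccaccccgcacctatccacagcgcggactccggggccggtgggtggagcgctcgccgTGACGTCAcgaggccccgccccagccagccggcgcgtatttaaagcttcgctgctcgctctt
Cdkn1a, chr17:29090729-29090978, plus strand: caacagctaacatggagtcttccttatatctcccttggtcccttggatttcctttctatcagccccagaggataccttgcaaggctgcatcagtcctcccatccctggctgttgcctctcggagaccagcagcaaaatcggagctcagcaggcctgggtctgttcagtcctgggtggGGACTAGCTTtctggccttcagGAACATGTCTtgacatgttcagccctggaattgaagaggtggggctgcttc

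Of the 9 genes with a promoter in the table, Trp53inp1 being the exception, 5 held the p53 decamer within these 250 bases, against 7.13% of 32851 promoters. These were Gadd45a, Trp53, Cdkn1a, Mdm2 and Ccng1. The octamer, which was searched for after the sequences had been seen, stood in Gadd45a on either strand and in Gadd45g, against 1.6% of promoters. Plk2 was the only gene of the set with a cyclic AMP response element, which 1.55% of promoters held. CCAAT stood in 7 genes and in 33.8% of promoters, and TGANTCA, the AP-1 motif, in 0 genes and in 6.75% of promoters. Cdkn1a has a second start in the table, downstream of the one shown, and none of these motifs stood before it. Which start belongs to the transcript that the Cdkn1a probe used here reads was not checked. A match describes the letters of the window and says nothing of whether a factor was bound.

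The signal of the deleted gene was 1.71 ± 0.20 in Nat1-null cells, 1.60 ± 0.06 in Map3k3 Dox, 1.62 ± 0.17 in Map3k3 no Dox, 1.56 ± 0.26 in EGFP Dox and 4.31 ± 0.15 in WT cells (log2 signal minus that of the array's 75th percentile, SD, n = 3 each). All signal values below are on that scale. Eif4g2 was thus 6.06-fold lower in Nat1-null than in WT cells (limma, adjusted p = 2.32e-08), and the sources used here do not say where its probe lies relative to the deleted part. The Map3k3 probe differed by 0.18 between Map3k3 Dox and no Dox (adjusted p = 0.236), and whether it reads the inducible gene is not given either, so it does not check the induction. The 75th percentile was 495 to 615 units, and the share of probes detected above background 42.7 to 53.9%. Map3k3 Dox array 2 had the lowest share and the highest floor, 12.7 units, so the results that use it are also given without it where that changes a call. Nat1-null and WT arrays shared a slide and stood in separate rows of it. Map3k3 Dox and no Dox arrays lay on the other slide, with 1 Map3k3 Dox array in the row of the no Dox arrays. All 10 embryonic stem cell markers on the list, Pou5f1 and Sox2 among them, were above background in every group.

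**Figure D1:**
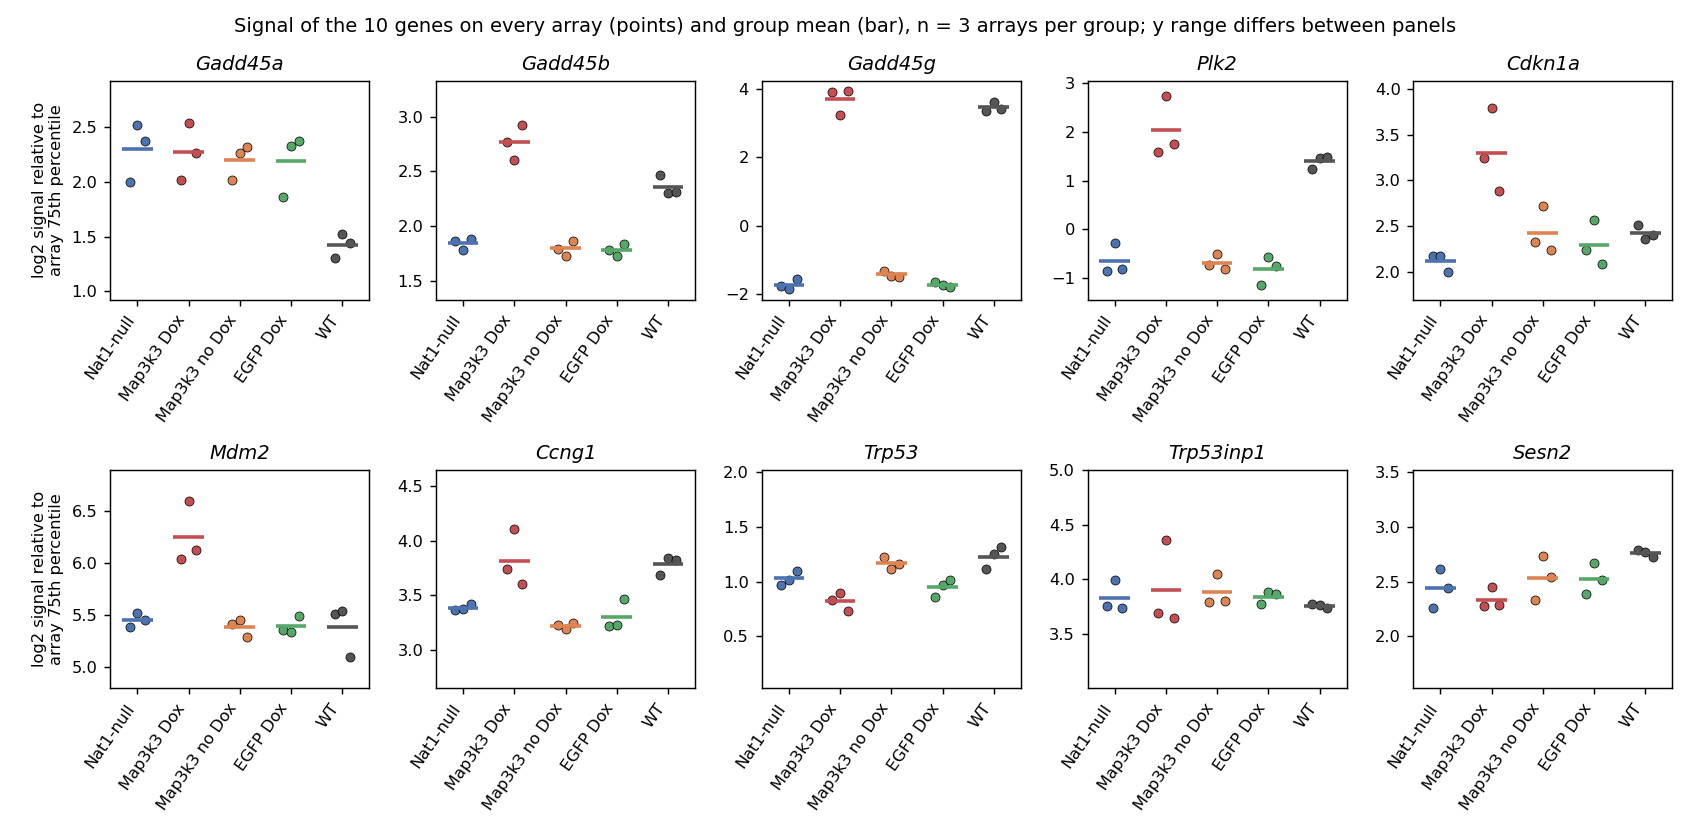
Log2 signal above or below the 75th percentile of its array (y axis, range differs between panels) of the 10 genes on each array of the 5 groups (x axis), as points, with the group mean as a bar. Gadd45g and Plk2 are high in Map3k3 Dox and WT cells and low in the other groups, while Gadd45a is low in WT cells and high in the other groups.

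The comparison of Nat1-null with WT cells asks what the absence of Nat1 does to these genes. Gadd45g was 36.2-fold lower and Plk2 4.14-fold lower in Nat1-null than in WT cells, and Gadd45a was 1.83-fold higher. Mdm2, Cdkn1a and Trp53inp1, which are p53 targets as well, did not pass the test. A gene was called when its limma p-value, adjusted over all 14443 genes by the Benjamini-Hochberg method, was under 0.05 and its difference at least 1.5-fold. Of the 10 genes 3 were called, 1 higher and 2 lower. Over all genes 37.7% were called in this comparison, 17.2% higher and 20.5% lower, so a share of 30% is close to the background. On the adjusted p alone 7 of the 10 passed, where 62.9% of all genes did. The median difference of the 10 genes was -0.32, against 0.07 for all genes. Trophectoderm and fibroblast markers differed between the same groups, with 9 of 11 and 6 of 10 of them lower in Nat1-null cells, and their part in these values was not tested. In RNA from whole cultures fewer cells of a type and less RNA per cell cannot be told apart.

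Within the Gadd45 family the directions differed. Gadd45g read -1.76, -1.86 and -1.55 in Nat1-null cells, against 3.35, 3.61 and 3.41 in WT cells. In units of the scanner these were 148 to 173 units in Nat1-null and 5837 to 7236 units in WT cells, well apart on every array. Its log2 difference was -5.18 (SE 0.16, adjusted p = 3.31e-10). Gadd45a read 2.00, 2.52 and 2.38 in Nat1-null cells, against 1.31, 1.53 and 1.44 in WT cells, with no overlap. The difference was 0.87 (SE 0.18, adjusted p = 0.000962). Gadd45b read 1.86, 1.79 and 1.88 in Nat1-null cells, against 2.47, 2.30 and 2.31 in WT cells. The arrays did not overlap, but the difference of -0.52 (SE 0.08, adjusted p = 0.00015) was 1.43-fold and so below the fold minimum. With quantile normalization it was -0.64, and with the percentile taken over probes above background on all arrays -0.66, and both passed the fold minimum.

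Of the 6 p53 targets outside the Gadd45 family 1 was called. This was Plk2, which encodes a polo-like kinase that is induced early after growth and stress signals. It read -0.86, -0.29 and -0.82 in Nat1-null cells, against 1.24, 1.46 and 1.48 in WT cells. The groups lay far apart, with a difference of -2.05 (SE 0.27, adjusted p = 3.23e-05). Ccng1, whose product cyclin G1 is a partner of MDM2 and of the phosphatase PP2A, read 3.36, 3.38 and 3.42 in Nat1-null cells, against 3.69, 3.85 and 3.82 in WT cells. Its difference of -0.40 (adjusted p = 0.0079) did not overlap but was 1.32-fold. With slide row as a block its adjusted p was 0.119. Sesn2, whose product restrains the growth kinase mTORC1, read 2.26, 2.61 and 2.45 in Nat1-null cells, against 2.79, 2.77 and 2.73 in WT cells, a difference of -0.33 (adjusted p = 0.0273) that was 1.25-fold. Trp53 itself read 0.97, 1.02 and 1.10 in Nat1-null cells, against 1.11, 1.25 and 1.32 in WT cells. That difference of -0.20 (adjusted p = 0.0324) was 1.15-fold. With slide row as a block the limma adjusted p was 0.096 for Sesn2 and 0.322 for Trp53. With single arrays left out it reached 0.12 for Sesn2 and 0.125 for Trp53.

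The remaining p53 targets did not reach the adjusted threshold. Cdkn1a read 2.17, 2.17 and 1.99 in Nat1-null cells, against 2.51, 2.36 and 2.40 in WT cells, and its difference of -0.31 had a 95% interval of -0.76 to 0.13 (adjusted p = 0.2). Mdm2 read 5.38, 5.53 and 5.45 in Nat1-null cells, against 5.51, 5.54 and 5.10 in WT cells, a difference of 0.07 with an interval of -0.25 to 0.39. Trp53inp1, which encodes a p53-induced protein of the autophagy and cell death response, read 3.76, 4.00 and 3.73 in Nat1-null cells, against 3.78, 3.77 and 3.74 in WT cells. Its difference was 0.07, with an interval of -0.28 to 0.41. The interval of Cdkn1a reaches past the fold minimum, while those of Mdm2 and Trp53inp1 lie within it. The Cdkn1a arrays of the compared groups did not overlap, unlike those of Mdm2 and Trp53inp1. Over the 19 alternative fits the limma adjusted p of Cdkn1a ran from 0.0174 to 0.375, and it was called in none of them. In 8 of the 10 genes the Nat1-null and WT arrays did not overlap, against 71.8% of all genes.

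The comparisons of Map3k3 Dox with Map3k3 no Dox and with EGFP Dox ask what induced Map3k3 does in cells without Nat1. Gadd45g was 34.4-fold higher in Map3k3 Dox than in Map3k3 no Dox cells and Plk2 6.57-fold higher. Gadd45b, Cdkn1a, Mdm2 and Ccng1 rose 1.96-, 1.84-, 1.82- and 1.51-fold. Against no Dox 6 of the 10 genes rose and 0 fell, where 12.3% of all genes rose, 5.58% fell and 17.9% were called in either direction. Against EGFP Dox 5 rose and 0 fell, where 12.4% of all genes rose, 5.64% fell and 18% were called in either direction. On the adjusted p alone 7 and 6 passed, where 39.8% and 41.4% of all genes did. The median difference of the 10 genes was 0.73 against no Dox and 0.68 against EGFP Dox, with -0.07 and -0.09 for all genes. Both comparisons use the same 3 Map3k3 Dox arrays, so they are not independent of each other.

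**Figure D2:**
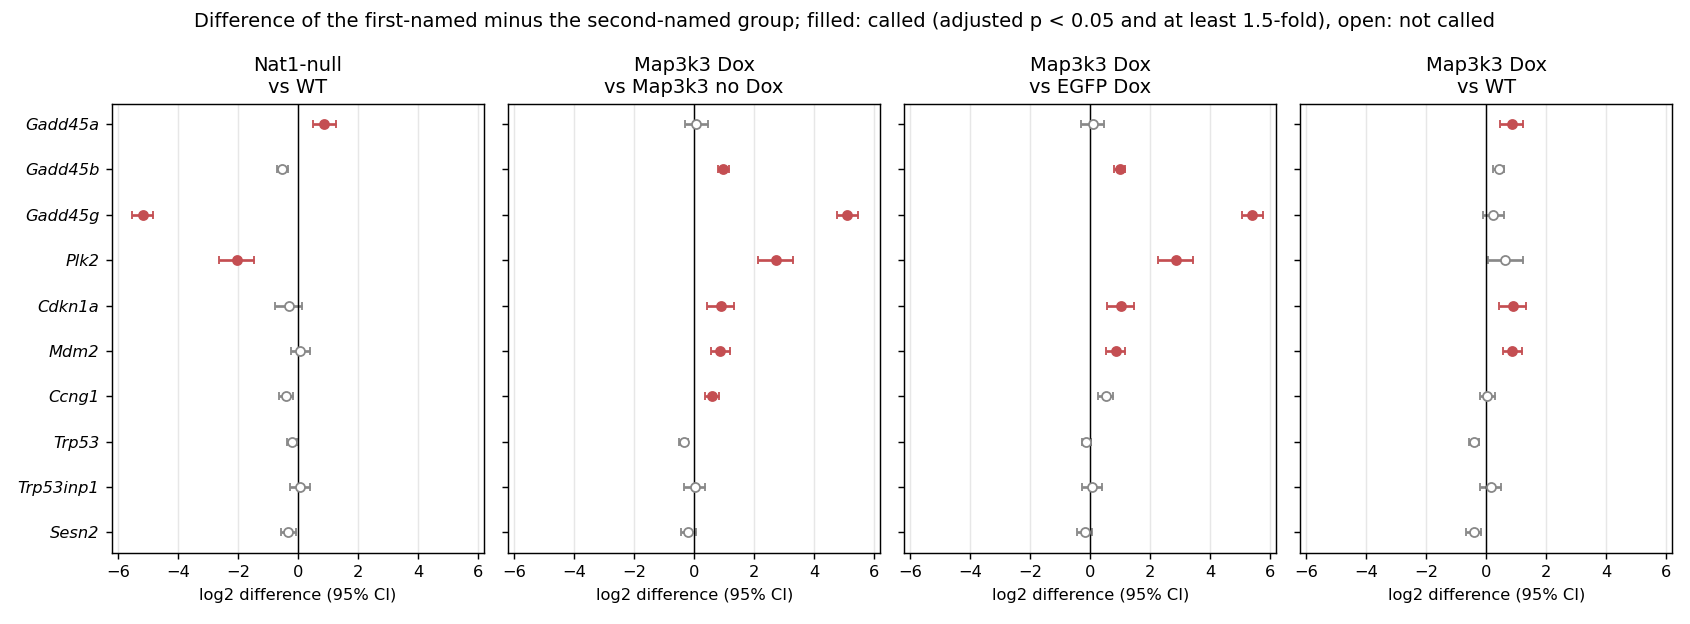
Log2 difference (x axis) of the first-named minus the second-named group for the 10 genes (rows) in 4 comparisons (panels), with 95% confidence intervals from limma. Filled points were called, and the largest differences in both directions are those of Gadd45g, -5.18 in Nat1-null against WT and 5.40 in Map3k3 Dox against EGFP Dox.

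Of the Gadd45 genes, Gadd45g and Gadd45b rose with Map3k3 and Gadd45a did not pass the test. Gadd45g read 3.90, 3.23 and 3.92 in Map3k3 Dox cells, against -1.31, -1.45 and -1.49 in no Dox and -1.64, -1.72 and -1.79 in EGFP Dox cells. Every Map3k3 Dox array stood far above every control array. The differences were 5.10 (SE 0.16, adjusted p = 6.43e-10) against no Dox and 5.40 (adjusted p = 4.38e-10) against EGFP Dox, where the fold was 42.2. Gadd45b read 2.77, 2.61 and 2.93 in Map3k3 Dox cells, against 1.79, 1.73 and 1.87 in no Dox and 1.78, 1.73 and 1.84 in EGFP Dox cells. The arrays did not overlap, and the differences were 0.97 (SE 0.08, adjusted p = 2.95e-06) and 0.99 (adjusted p = 2.55e-06). Gadd45a read 2.02, 2.54 and 2.27 in Map3k3 Dox cells, against 2.02, 2.27 and 2.32 in no Dox and 1.86, 2.33 and 2.38 in EGFP Dox cells. These arrays overlapped, with differences of 0.07 (95% interval -0.31 to 0.46) and 0.09 (-0.30 to 0.47).

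Plk2 read 1.59, 2.75 and 1.76 in Map3k3 Dox cells, against -0.73, -0.52 and -0.81 in no Dox and -1.15, -0.56 and -0.76 in EGFP Dox cells. Map3k3 Dox array 2 was the highest by about 1 log2 unit, and the lowest Map3k3 Dox array was still far above all controls. The differences were 2.72 (SE 0.27, adjusted p = 1.05e-05) and 2.85 (adjusted p = 6.75e-06), and 2.36 and 2.50 without that array. Mdm2 read 6.04, 6.60 and 6.12 in Map3k3 Dox cells, against 5.42, 5.45 and 5.29 in no Dox and 5.36, 5.34 and 5.49 in EGFP Dox cells. The groups did not overlap, with differences of 0.86 (SE 0.15, adjusted p = 0.000639) and 0.85 (adjusted p = 0.00065), and 0.69 and 0.68 without array 2.

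Cdkn1a, the gene of p21, read 3.24, 3.79 and 2.88 in Map3k3 Dox cells, against 2.32, 2.72 and 2.23 in no Dox and 2.23, 2.56 and 2.08 in EGFP Dox cells. The lowest Map3k3 Dox array was above the highest control array by little, and equal-numbered arrays kept their order, with array 2 the highest in all 3 groups. The differences were 0.88 (SE 0.20, adjusted p = 0.00485) and 1.01 (adjusted p = 0.00198). Without Map3k3 Dox array 2 they were 0.64 (adjusted p = 0.0142) and 0.77 (adjusted p = 0.00503). These calls rest on the brighter of the 2 Cdkn1a probes. The other probe, annotated to another transcript of the gene, was dim, read -3.43, -2.52 and -3.91 in Map3k3 Dox cells, against -3.12, -1.94 and -3.21 in no Dox cells, and gave -0.53 (adjusted p = 0.421). It was above background on 2 of 3 Map3k3 Dox arrays. With the mean of both probes the differences were 0.18 (adjusted p = 0.701) and 0.45 (adjusted p = 0.306), and neither was called. A fit of the compared groups alone gave adjusted p = 0.0505 against no Dox, and on the slide that holds the Map3k3 Dox arrays the difference from EGFP Dox was 0.91 (adjusted p = 0.0532).

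Ccng1 read 3.74, 4.10 and 3.61 in Map3k3 Dox cells, against 3.22, 3.19 and 3.25 in no Dox and 3.22, 3.23 and 3.46 in EGFP Dox cells. There was no overlap, but the differences straddled the fold minimum, with 0.59 or 1.51-fold against no Dox (SE 0.11, adjusted p = 0.0013) and 0.51 or 1.42-fold against EGFP Dox (adjusted p = 0.00322). The call against no Dox was lost without Map3k3 Dox array 2 (0.45) and without no Dox array 2 (0.58). Against EGFP Dox, leaving out EGFP Dox array 3, the one on the other slide, gave 0.59 and a call, as did a slide block (0.59, adjusted p = 0.00297), the slide of the Map3k3 Dox arrays alone (0.59, adjusted p = 0.0258) and leaving out Map3k3 Dox array 3 (0.61).

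Trp53 read 0.83, 0.90 and 0.73 in Map3k3 Dox cells, against 1.22, 1.11 and 1.17 in no Dox and 0.86, 0.97 and 1.02 in EGFP Dox cells. Its difference from no Dox was -0.35 (adjusted p = 0.00259) with no overlap but only 1.27-fold, and from EGFP Dox -0.13 (adjusted p = 0.175). The p53 gene itself was thus not called in either comparison, and its differences were below 0. Trp53inp1 read 3.70, 4.36 and 3.65 in Map3k3 Dox cells, against 3.79, 4.05 and 3.81 in no Dox and 3.77, 3.89 and 3.86 in EGFP Dox cells, with overlap. Its differences were 0.02 (interval -0.33 to 0.36) and 0.06 (-0.28 to 0.40), and its other probe gave 0.15 and 0.17, not called. Sesn2 read 2.28, 2.45 and 2.29 in Map3k3 Dox cells, against 2.33, 2.74 and 2.54 in no Dox and 2.39, 2.67 and 2.52 in EGFP Dox cells, with differences of -0.20 (adjusted p = 0.193) and -0.19 (adjusted p = 0.212). The arrays of Map3k3 Dox and no Dox did not overlap in 7 of the 10 genes, against 50.1% of all genes. Against EGFP Dox the number was 6, with 49.3% of all genes.

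The null and wild-type arrays share no array with the Map3k3 Dox and no Dox arrays. Both genes of the set that fell in Nat1-null against WT cells, Gadd45g and Plk2, rose in Map3k3 Dox against no Dox cells. Over all genes 1110 did so, which is 37.4% of the 2964 that fell and 62.6% of the 1773 that rose. Gadd45a, the gene that rose in Nat1-null cells, was not called with Map3k3. Of the 2485 genes that rose in Nat1-null cells 4.83% also rose in Map3k3 Dox against no Dox cells. The share of them that was not called there, which is the one to set beside Gadd45a, was not counted.

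Map3k3 Dox cells were also set against WT cells, which shows how far each gene stood from wild type after induction. Gadd45a, Cdkn1a and Mdm2 were higher in Map3k3 Dox than in WT cells, by 1.80-, 1.84- and 1.83-fold. These 3 of the 10 genes were called, all higher, where 38.2% of all genes were called, 18.3% higher and 19.9% lower. On the adjusted p alone 6 passed, where 61.6% of all genes did. Gadd45g, which of the 10 genes fell most in Nat1-null cells, was at a level that overlapped that of WT cells. The groups lay on different slides, which the EGFP Dox arrays alone connect.

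Gadd45a differed by 0.85 (SE 0.18, adjusted p = 0.00116), with Map3k3 Dox arrays at 2.02 to 2.54 and WT arrays at 1.31 to 1.53. Mdm2 differed by 0.87 (SE 0.15, adjusted p = 0.000238), with Map3k3 Dox arrays at 6.04 to 6.60 and WT arrays at 5.10 to 5.54. Cdkn1a differed by 0.88 (SE 0.20, adjusted p = 0.0024), with Map3k3 Dox arrays at 2.88 to 3.79 and WT arrays at 2.36 to 2.51. In all 3 genes the Map3k3 Dox and WT arrays were apart. With slide as a block the Cdkn1a difference was 0.57 (adjusted p = 0.251) and with the mean of its 2 probes 0.18 (adjusted p = 0.658), and neither was called.

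Gadd45g differed from WT by 0.23 (95% interval -0.12 to 0.58, adjusted p = 0.239), and by 0.46 (adjusted p = 0.00329) without Map3k3 Dox array 2. Plk2 differed by 0.64 or 1.56-fold (SE 0.27, adjusted p = 0.0561) and was not called, although its Map3k3 Dox and WT arrays did not overlap. It was 0.28 without Map3k3 Dox array 2, and was called without array 1 (0.86, adjusted p = 0.02), without array 3 (0.77, adjusted p = 0.045), with normexp background correction (0.59, adjusted p = 0.0343) and over the probes above background on all arrays (adjusted p = 0.048). Ccng1 differed by 0.03 (interval -0.21 to 0.28). Gadd45b at 0.41 (adjusted p = 0.000971), Trp53 at -0.41 (adjusted p = 0.000381) and Sesn2 at -0.43 (adjusted p = 0.0067) passed the adjusted threshold and not the fold minimum. Trp53inp1 differed by 0.14 (adjusted p = 0.464). Map3k3 Dox and WT arrays were apart in 7 of the 10 genes, against 70.7% of all genes.

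Ordered by their means, the groups formed 4 patterns among the 10 genes. Gadd45g, Plk2, Gadd45b and Ccng1 were highest in Map3k3 Dox cells, next in WT cells and lowest in the other 3 groups. The step below WT had no overlap in all 4 genes, whereas Map3k3 Dox and WT arrays overlapped for Gadd45g and Ccng1. Cdkn1a and Mdm2 were highest in Map3k3 Dox cells, and the 4 groups below formed a run in which every neighbour overlapped. Gadd45a was lowest in WT cells, below 4 overlapping groups that included Map3k3 Dox. Trp53, Sesn2 and Trp53inp1 had the smallest ranges, with WT the highest group for Trp53 and Sesn2 and the lowest for Trp53inp1.

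The control comparisons showed how these genes differ between groups of null cells in which Map3k3 was not induced. In EGFP Dox against Nat1-null cells limma called 0 of the 10 genes, and 1 gene or 0.00692% over all 14443. In Map3k3 no Dox against Nat1-null cells it called 0 of the 10 genes and 0% of all genes. At an unadjusted p under 0.05, 0 of the 10 passed in either comparison, with 1044 and 2084 of all genes. The largest difference of the set was 0.31 for Cdkn1a in Map3k3 no Dox against Nat1-null cells (95% interval -0.13 to 0.76). Gadd45g followed with 0.30 (-0.05 to 0.65), with arrays at -1.31 to -1.49 in Map3k3 no Dox cells, above -1.55 to -1.86 in Nat1-null cells. These arrays lay on different slides. In 4 of the 10 genes the arrays of Map3k3 no Dox and Nat1-null cells did not overlap, against 21% of all genes, and in EGFP Dox against Nat1-null cells in 0, against 11.6%.

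The 3 Map3k3 Dox arrays did not read these genes alike. Array 2 was the highest of its group in 8 of the 10 genes and the lowest in the other two, Gadd45b and Gadd45g. It stood 0.99 above the next array for Plk2 and 0.67 below the next for Gadd45g. Numbers 2 of the other null-cell groups were the highest in 5 genes for Nat1-null, 5 for Map3k3 no Dox and 4 for EGFP Dox. Equal-numbered arrays of the null-cell groups deviated together from their group means over all genes, with correlations for number 2 of 0.32 between Map3k3 Dox and no Dox and 0.62 between Map3k3 no Dox and Nat1-null cells. Array 2 was also the Map3k3 Dox array with the lowest share of probes above background, and the part of that in these values was not tested.

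Other p53 targets, from a list of 30 genes of which 29 were measured, moved in both directions. In Nat1-null against WT cells 4 rose and 6 fell, and their median difference of 0.11 was close to the 0.07 of all genes. Over all genes 17.2% rose and 20.5% fell there, which is the background for this and the lists below. The largest falls were those of Fas, a death receptor gene, by at least 2.91-fold, Ddit4, an mTORC1 inhibitor gene, with -1.87, and Pmaip1, which encodes the BH3-only protein Noxa, with -0.82. Those that rose most were Tigar, a regulator of glycolysis, with 0.97, Ccng2, the relative of Ccng1, with 0.84, and Ephx1, an epoxide hydrolase gene, with 0.83. Fas was above background on 0 of 3 Nat1-null and 3 of 3 WT arrays.

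In Map3k3 Dox against no Dox cells 8 of the 29 rose and 2 fell, with a median of 0.03. Over all genes 12.3% rose and 5.58% fell there. The shares were 12.4% and 5.64% against EGFP Dox and 18.3% and 19.9% against WT, also for the lists below. Ddit4 rose by 2.66 (adjusted p = 1.44e-07) and Perp, which encodes a membrane protein of desmosomes and of p53-dependent cell death, by 2.39 (adjusted p = 1.72e-06). Fas rose by at least 1.23-fold, on 1 of 3 Map3k3 Dox arrays above background against 0 of 3 no Dox arrays. Ephx1 fell by 1.34 and Bax, the gene of a mitochondrial death effector, by 0.68 on the log2 scale. Against EGFP Dox 8 rose and 1 fell, with a median of -0.01, and Ddit4 with 2.42, Perp with 2.42, Pmaip1 with 1.69 and Ephx1 with -1.32 led. Against WT 9 of the 29 were higher and 2 lower. Ccng2 with 1.78, Perp with 1.47 and Pmaip1 with 1.33 were the highest, and Fas with -1.97, on 1 of 3 Map3k3 Dox arrays above background, and Bbc3, which encodes the BH3-only protein Puma, with -0.69 were lower. In these 4 comparisons 18 to 20 of the 29 were not called, and in both control comparisons 29.

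**Figure D3:**
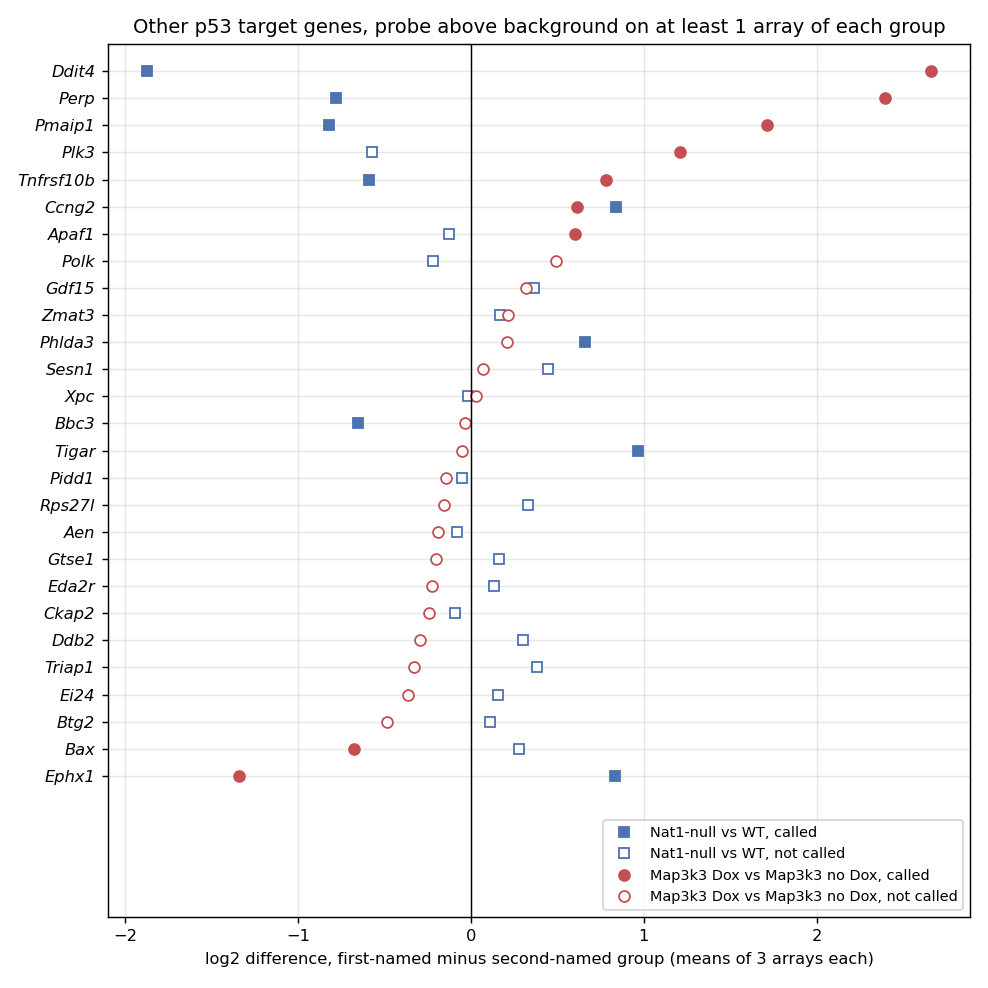
Log2 difference (x axis) of 27 of the 29 measured p53 targets outside the set (rows), for Nat1-null minus WT (squares) and Map3k3 Dox minus Map3k3 no Dox (circles), with called genes filled. Fas and Rrm2b are not drawn because their probes were on 0 arrays above background in a group compared, and Ddit4, Perp, Pmaip1 and Tnfrsf10b fell in the first comparison and rose in the second.

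Genes that control p53 and relatives of p53 formed a list of 15. In Nat1-null against WT cells 4 of them rose and 1 fell. Hipk2, a kinase that phosphorylates p53, rose by 1.10, Mdm4, the partner of MDM2, by 0.88, and Usp7, a deubiquitinase of p53 and MDM2, by 0.79. Trp53bp1, a DNA damage adaptor gene, fell by 1.00. With Map3k3, 0 rose against no Dox and the checkpoint kinase genes Chek1 and Chek2 fell by 0.62 and 0.61, with Chek1 above background on 1 of 3 Map3k3 Dox arrays. Against EGFP Dox 0 rose, and Chek2 fell by 0.65 and Mdm4 by 0.59. Against WT 1 was higher, Usp7 with 0.60, and 4 were lower, of which Trp53bp1 with -1.13, Chek2 with -0.90 and Chek1 with -0.79 differed most.

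Paralogs of the 10 genes were listed as well. Of 7 such genes, which share Sesn1, Plk3 and Ccng2 with the p53 target list, Plk3 rose by 1.21 in Map3k3 Dox against no Dox cells and Ccng2 by 0.61, and 0 fell. Against EGFP Dox these were 1.24 and 0.79, and Trp53inp2 rose by 0.63. In Nat1-null against WT cells Ccng2 rose and Sesn3, a sestrin gene, fell by 1.07. Against WT, Map3k3 Dox cells had 3 higher, Ccng2 with 1.78, Trp53inp2 with 0.79 and Plk3 with 0.75.

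Cdkn1a was set beside the 7 other CDK inhibitor genes measured. In Map3k3 Dox against no Dox cells 3 rose and 0 fell. Cdkn2b, the gene of p15, rose by 2.72 (adjusted p = 1.77e-05), Cdkn2a, which encodes p16 and the MDM2 inhibitor p19ARF, by 1.43 (adjusted p = 3.68e-05), and Cdkn1c, the gene of p57, by 1.16 (adjusted p = 4.58e-06). Against EGFP Dox these 3 genes rose by 2.81, 1.43 and 1.15, and 0 fell. In Nat1-null against WT cells Cdkn1b, the gene of p27, rose by 1.15, Cdkn2c, the gene of p18, by 1.15 and Cdkn2a by 1.06, while Cdkn2b fell by 1.71 and Cdkn1c by 1.35. Cdkn2c was dim, with means of -3.20 in Nat1-null and -4.35 in WT cells, though above background on 3 of 3 arrays in each. Against WT 4 were higher in Map3k3 Dox cells and 0 lower, with Cdkn2a at 2.71, Cdkn2c at 2.04 and Cdkn2b at 1.42 the largest. Which of the Cdkn2a products its probe reads was not checked.

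**Figure D4:**
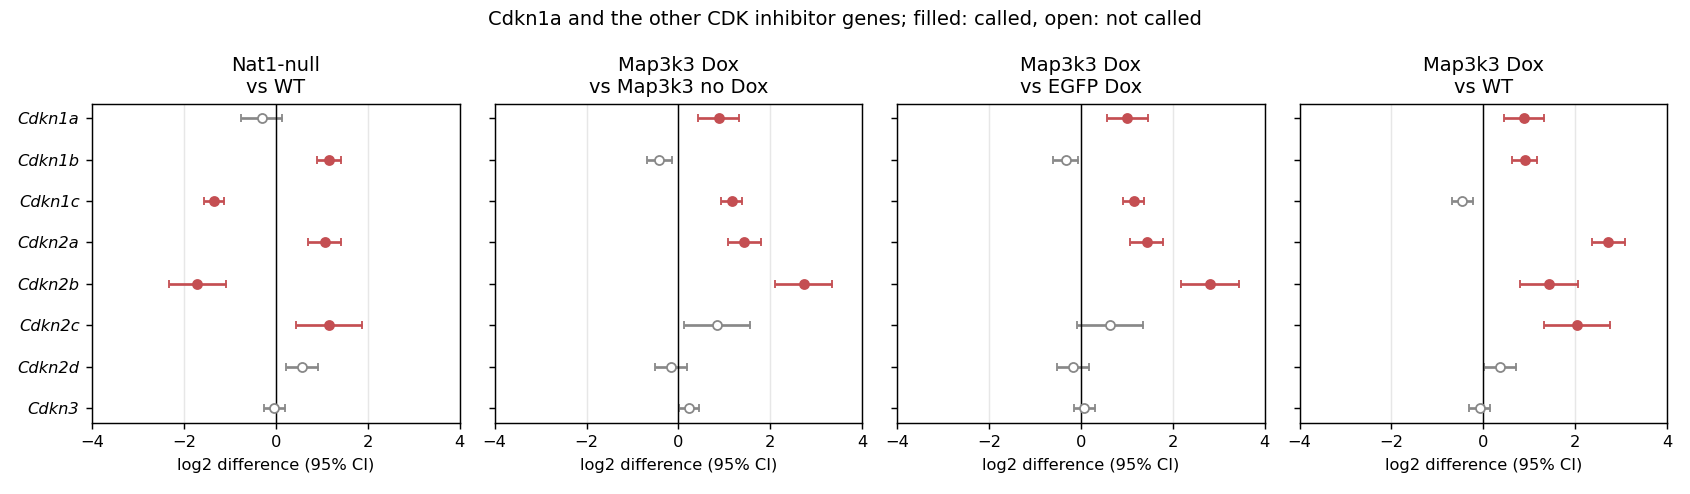
Log2 difference (x axis) of Cdkn1a and 7 other CDK inhibitor genes (rows) in 4 comparisons (panels), first-named minus second-named group, with 95% confidence intervals from limma and called genes filled. Cdkn2b and Cdkn1c lie left of 0 in Nat1-null against WT, at -1.71 and -1.35, and right of 0 in Map3k3 Dox against no Dox, at 2.72 and 1.16.

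The kinases through which GADD45 proteins act on p38 and JNK were mostly not called. Of 8 measured, Map3k4, Mapk8 and Mapk14 among them, 0 were called in Map3k3 Dox against no Dox or EGFP Dox cells. Mapk14 alone of them passed the limma adjusted threshold, with 0.41 against no Dox (adjusted p = 0.000165) and 0.35 against EGFP Dox (adjusted p = 0.000457). Both differences were below the fold minimum, and on the adjusted p alone 39.8% and 41.4% of all genes passed. Map2k7, a JNK activator gene, rose by 0.66 in Nat1-null against WT cells, and Mapk14, the gene of p38 alpha, was 0.63 higher in Map3k3 Dox than in WT cells. Of 12 measured cyclin and CDK genes and Pcna, 2 rose and 1 fell in Map3k3 Dox against no Dox cells, Ccnd2 with 1.11, Ccnd1 with 1.05 and Cdk2 with -0.60. Against EGFP Dox Ccnd1 alone rose, by 1.08. The mean of Ccnd2 was -1.8 in Map3k3 Dox, -2.9 in no Dox, -2.8 in EGFP Dox and -1.4 in Nat1-null cells. In Map3k3 Dox cells it was thus still below the Nat1-null level. In Nat1-null against WT cells Ccnd3 rose by 1.52, Ccnb2 by 0.65 and Cdk2 by 0.61, and Ccnd2 fell by 1.43. In Map3k3 Dox against WT cells Ccnd3 with 1.39 and Ccnd1 with 1.13 were higher and Ccnd2 with -1.86 was lower. The 15 proliferation genes summed to 725 to 783 times the 75th percentile in Map3k3 Dox cells, 840 to 952 in no Dox, 869 to 993 in EGFP Dox, 906 to 1034 in Nat1-null and 718 to 772 in WT cells. In Map3k3 Dox against no Dox cells 0 of them rose and 1, Aurkb, fell.

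Markers of other cell types differed between the same groups as the 10 genes, and the summed signal of the trophectoderm list was, like Gadd45g and Plk2, higher in Map3k3 Dox and WT cells than in the other 3 groups. Of 11 measured trophectoderm markers 10 rose and 0 fell in Map3k3 Dox against no Dox cells, and 1, Tead4, rose and 9 fell in Nat1-null against WT cells. Their summed signal, in units of the 75th percentile, was 367 to 436 in Map3k3 Dox, 15.3 to 30.0 in no Dox, 14.4 to 29.9 in EGFP Dox, 15.7 to 35.2 in Nat1-null and 211 to 219 in WT cells. All such sums add signal that is not in log2, so the brightest genes of a list weigh most. Here this was Krt18, with a mean of 8.28 in Map3k3 Dox, 3.31 in no Dox and 7.30 in WT cells. Cdx2 was above background on 0 arrays of the Nat1-null, no Dox and EGFP Dox groups, and Gata3 on 0 arrays of the no Dox and EGFP Dox groups. Of 10 fibroblast and feeder markers 5 rose and 1, Thy1, fell in Map3k3 Dox against no Dox cells, and 0 rose and 6 fell in Nat1-null against WT cells. In Map3k3 Dox against WT cells 1 was higher and 7 were lower. They summed to 26.7 to 62.9 in Map3k3 Dox, 13.3 to 28.3 in no Dox, 12.0 to 30.8 in Nat1-null and 117 to 123 in WT cells, and Dcn was above background on 0 arrays of every group but WT. Of 9 primitive endoderm markers 7 rose and 2 fell in Map3k3 Dox against no Dox cells and 2 rose and 5 fell in Nat1-null against WT cells. They summed to 36.8 to 52.9 in Map3k3 Dox, 61.8 to 72.6 in no Dox, 45.0 to 71.6 in Nat1-null and 18.0 to 20.4 in WT cells. The sum is mostly that of Lama1, with a mean of 4.76 in Map3k3 Dox and 5.99 in no Dox cells. It was lower in Map3k3 Dox than in no Dox cells although 7 markers rose. Of the 10 embryonic stem cell markers 3 fell in Map3k3 Dox against no Dox cells, and they summed to 596 to 629 in Map3k3 Dox, 862 to 889 in no Dox, 833 to 894 in Nat1-null and 423 to 447 in WT cells. The part of such cells in the values of the 10 genes was not tested.

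The genes most like each member over the 15 arrays are given as a description, since the 15 arrays form only 5 groups and share slides and scaling. Gadd45g was followed most closely by Pxdn, a matrix peroxidase gene (r = 0.992), Tpm2, a tropomyosin gene (r = 0.991), and Efnb1, an ephrin gene (r = 0.990). Plk2 was followed by Morc4 (r = 0.989), Vmp1, an autophagy gene (r = 0.989), and the netrin receptor gene Unc5b (r = 0.988). For Gadd45b these were Chst15, Pdlim2 and Flnc (r = 0.987 to 0.983), and for Ccng1 Cebpd, Pafah1b1 and Ywhag (r = 0.977 to 0.965). For Cdkn1a they were the small heat shock gene Hspb8 (r = 0.966), Fez2 and Ncs1, and for Mdm2 Asap1 (r = 0.947), Gnas and Nfil3. Gadd45a went with H2ax, the DNA damage histone gene (r = 0.943), Rfx7 and Ube2j2, Trp53inp1 with Cers5 (r = 0.929), Sat1 and Ddit4l, and Sesn2 with Lef1 (r = 0.965), Mex3d and Wfdc15a. Trp53 had the loosest match, Nudcd2 (r = 0.865), with Pitpnb and Fam221a after it. Within the set Gadd45g and Plk2 were the closest pair by Pearson's r (0.948), followed by Gadd45b and Gadd45g (0.938). By Spearman's rho the closest pair was Gadd45b and Ccng1 (0.825), and Gadd45g and Plk2 had 0.718, while by Pearson's r Trp53 and Mdm2 ran opposite (r = -0.63).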

How the data were processed

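Per the file headers, the authors extracted the 15 scanned arrays with protocol GE1_1105_Oct12 of Feature Extraction 11.5.1.1. The deposited processed green signal is an intensity in arbitrary units, already corrected for background per the file headers. Here it was turned into log2, non-control spots of a probe were averaged without spots marked as outliers, and the 75th percentile of the array was subtracted. The authors' deposited log2 values for the same probes correlated with these at 1 on every array. Probes were named through RefSeq accessions (28331 of 55681 had a symbol, 27350 none), kept if 1 group or more had all 3 arrays well above background, and the brightest passing probe stood for its gene. This left 14443 genes. The number of arrays limits the precision.

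Limma 3.58.1 in R 4.3.3 was fitted with a mean per group on all 15 arrays (10 residual degrees of freedom, two-sided, Benjamini-Hochberg over all genes), after it had been tested on simulated data. A fold of at least N is a bound, set where the lower group had 0 arrays above background, against the lowest signal above background of each array. All 10 genes were named in every comparison, and from each gene list at most the 3 called genes that rose and the 3 that fell with the largest differences. The Aurkb, Tnfrsf10b and Rrm2b mentions lie outside that rule for the figure or a count of 1. The 10 genes and the lists were chosen with earlier results of these data known. Pairing by equal replicate numbers, taken from the labels, was checked by correlating deviations from group means. Between the null-cell groups compared every same-number r was over 0.1. It was 0.154, 0.318 and 0.252 for Map3k3 Dox with no Dox, and 0.101, 0.316 and 0.193 with EGFP Dox. For Map3k3 Dox array 1 an EGFP Dox array of another number had a higher r, 0.186, so that pair was not borne out. WT arrays did not pair with Nat1-null or Map3k3 Dox arrays (-0.028 to 0.059). The alternatives were other scalings, background corrections, filters, probe choices, blocks and left-out arrays. The files hold no mean-signal column, so normexp (offset 50) used the median signal.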

Additional observations from a re-analysis of the deposited data

How the results depend on the processing

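The members called ranged over the alternatives from 3 to 7 for Nat1-null against WT, 5 to 7 for Map3k3 Dox against no Dox, 4 to 6 against EGFP Dox and 2 to 6 against WT, and stayed at 0 in both control comparisons. Leaving out single arrays gave 3, 5 to 6, 5 to 6 and 3 to 4. Removing the fold minimum gave 7 for Nat1-null against WT and 6 for Map3k3 Dox against WT, by construction, and over all genes 9091, 5752, 5974 and 8904 calls in place of 5449, 2579, 2603 and 5518. With only probes above background on all arrays Map3k3 Dox against no Dox had 1718 calls. The 8 single-gene calls that were lost, 6 of Cdkn1a and 2 of Ccng1, and the 20 that were gained are given above or, for the replicate block, below, or came from removing the fold minimum, and no called difference changed its sign. The cause of these changes was not tested. The percentile over probes above background on all arrays moved the median of all genes in Nat1-null against WT to -0.07 in place of 0.07, and the share of calls that rose to 34.2% in place of 45.6%. With only probes above background on all arrays that share was 58.5%, and in Map3k3 Dox against WT it was 58.0% in place of 47.9%. With the replicate block, 6, 5, 3 and 4 members were called for Map3k3 Dox against no Dox, against EGFP Dox, Nat1-null against WT and Map3k3 Dox against WT. The added call was Plk2 (0.64, adjusted p = 0.00884), between groups whose numbers do not pair. Over all genes the block gave 39 calls in place of 0 for Map3k3 no Dox against Nat1-null cells. Row and replicate blocks together, chosen after seeing the data, gave 6 and 5. The mean of a gene's probes and the slide block each gave 2 for Map3k3 Dox against WT. Within-slide values against WT could not be had for Map3k3 Dox.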
